A study of Mus musculus with 4 samples.

Results

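The proteasome subunits and regulators were taken as the genes of the deposited Ribo-seq table whose symbol begins with Psm, then a letter from a to g and a number, which gave 45 of 11598 genes. The pattern leaves out *Psmc3ip*, a recombination gene with a similar symbol. The 45 genes comprised 7 core alpha subunits, the germ-cell alpha subunit *Psma8*, 7 core beta subunits, the induced beta subunit *Psmb10*, 6 ATPases and 11 non-ATPase subunits of the regulatory particle, 5 activators and inhibitors and 7 assembly chaperones, and lie on 16 chromosomes. *Psmb8*, *Psmb9*, *Psmb11* and *Psme2b* were not analysed here. Ribo-seq sequences ribosome-protected fragments (RPFs), the pieces of mRNA that a translating ribosome shields from nuclease, so each value is a ribosome occupancy per gene and not a protein level. The values were not divided by mRNA abundance. A change in the amount of a transcript and one in the ribosomes per transcript therefore cannot be told apart here.

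The libraries came from leptotene and zygotene spermatocytes, the first stages of meiotic prophase, sorted by FACS from testes of 12 dpp mice. Of the 4 libraries, 2 were from control mice, which the labels call wild type and the methods describe as littermates, and 2 were from *Eef1g*-cKO mice. In the latter, *Stra8*-GFPCre removes exons of *Eef1g*, a gene for a subunit of translation elongation factor 1, in male germ cells alone. The mice were on a C57BL/6J background. The somatic cells of the testis keep the gene, and the deletion starts in the first differentiating spermatogonia, before the sorted stages.

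The proteasome is the cell's main ATP-driven protease. Its core particle is a barrel of stacked rings: alpha subunits form the outer rings and the gate, and beta subunits form the inner rings, of which β1 (*Psmb6*), β2 (*Psmb7*) and β5 (*Psmb5*) cut peptide bonds. The regulatory particle sits on the gate, where its ATPases (Psmc genes) unfold the substrate and its non-ATPase subunits (Psmd genes) bind and remove ubiquitin. Male germ cells from meiotic prophase on carry an alternative α4 subunit, *Psma8*, in place of the ubiquitous α4, *Psma7*, and also use the activator PA200, which *Psme4* encodes.

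The depth behind the values was low and uneven, the reads on genes numbering 2479504 and 1384282 for control but only 223906 and 407979 for *Eef1g*-cKO. The median proteasome gene had 414 and 251 reads in control against 23 and 47 reads in *Eef1g*-cKO. The targeted gene *Eef1g* had 107 and 58 reads in control against 0 and 4 reads in *Eef1g*-cKO. Its log2 fold change was -3.39 in limma, which did not pass adjustment (adjusted p = 0.0731), and -2.68 in edgeR, which did (adjusted p = 0.00780). Of 9 leptotene and zygotene marker genes, 5 increased and *Stra8* decreased by limma's adjusted p, and their summed reads per 1000000 were 4544 and 3462 in control against 9071 and 8655 in *Eef1g*-cKO. Spermatogonial markers went from 2480 and 3041 to 424 and 431 reads per 1000000 with 5 of 7 decreased, and pachytene markers from 892 and 649 to 1961 and 1993 with 2 of 6 increased. The pachytene marker *Piwil1* went the other way, from 80 and 16 reads in control to 1 and 2 in *Eef1g*-cKO, called by limma's unadjusted p alone. Of the 439 and 813 pachytene marker reads in *Eef1g*-cKO, 240 and 406 were of *Hist1h1t*, the gene for the testis histone H1T. The study detected no pachytene spermatocytes in spreads from adult *Eef1g*-cKO testes, nor in testis sections from juveniles a little older than 12 dpp. It found no H1T signal in spermatocytes of adult *Eef1g*-cKO testes. Sertoli markers summed to 963 and 220 reads per 1000000 in control against 201 and 135 in *Eef1g*-cKO, with 0 of 6 called by limma's adjusted p, 2 by its unadjusted p and 2 by edgeR. The other lists were near the limit of detection in *Eef1g*-cKO: spermatid markers summed to 6.45 and 28.9 reads per 1000000 in control against 0 and 9.80 in *Eef1g*-cKO, Leydig markers to 7.26 and 11.6 and to 8.93 and 4.90, peritubular markers to 109.7 and 60.0 and to 13.4 and 51.5, and the leukocyte marker *Cd74* to 4.44 and 0 and to 0 and 2.45. In a bulk library, fewer cells of a type and less RNA per cell cannot be told apart, and the part of these shifts in the proteasome results was not tested.

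In *Eef1g*-cKO, ribosome occupancy increased on the germ-cell alpha subunit *Psma8* and the lid subunit *Psmd6*. It decreased on the core subunits *Psma4*, *Psma7*, *Psmb1* and *Psmb4*, the induced beta subunit *Psmb10*, the ATPase *Psmc5* and the activator subunit *Psme1*. The groups were compared with limma on log2(FPKM + 1), where FPKM is the number of reads scaled to gene length in kilobases and to 1000000 reads on genes. For the proteasome genes that length exceeds the coding length, so ranks by FPKM can differ from ranks scaled to coding length. The added 1 FPKM shrinks the change of low genes, but a fall could still exceed that of edgeR where 1 library had 0 reads. *Psmb5*, with 0 and 2 reads in *Eef1g*-cKO, had a log2 fold change of -3.70 in limma against -3.10 in edgeR. The comparison ran over the 10475 genes whose 4-library mean reached 1 FPKM, and all 45 proteasome genes passed that filter. To be called, a gene needed a log2 fold change above 1 in either direction with an adjusted p under 0.05. By this rule 2 of 45 genes increased and 7 decreased, where 2.87% and 4.97% of all genes tested were called in these directions. By unadjusted p, 2 increased and 10 decreased, with *Psma5*, *Psmb5* and *Psmd5* added, against 7.32% and 16.3% of all genes. In edgeR's quasi-likelihood test on the reads, 42 of the genes could be tested, and 2 increased and 8 decreased by adjusted p, against 8.75% and 11.2% of all genes. The edgeR test and limma called 8 genes in common, edgeR adding *Psmb5* and *Psmd5* and not testing *Psmb10*. With libraries centred on their medians, limma called 3 increased, *Psmd14* being added, and 5 decreased, *Psmb1* and *Psmb4* being lost. With a single control library, where the *Eef1g*-cKO pair alone gives the spread, calls were lost: without control replicate 1, or without control replicate 2, 0 genes of the whole table passed limma's adjusted p, and 2 increased and 14 decreased, or 2 and 6, by unadjusted p.

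The 45 genes had a median log2 fold change of -0.68, with 16 positive and 29 negative values, where the median of all genes tested was -0.23. With *Psmb10*, which had no read in either *Eef1g*-cKO library, at its bound of detection, the median was -0.56. Centring each library on its median added the same amount to every gene, which put the all-gene median at -0.02 and the proteasome median at -0.47. In 10 genes the *Eef1g*-cKO libraries both exceeded the control libraries and in 26 they both fell short of them, against 24.6% and 37.7% of all genes tested, and the libraries overlapped for 9. Together the 45 genes took 8474 and 10559 reads per 1000000 in control against 7543 and 7417 in *Eef1g*-cKO, a ratio of 0.786 of the group means. The *Eef1g*-cKO libraries were both below the control libraries, but the control libraries differed from each other by more than the lower of them differed from *Eef1g*-cKO.

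**Figure D1:**
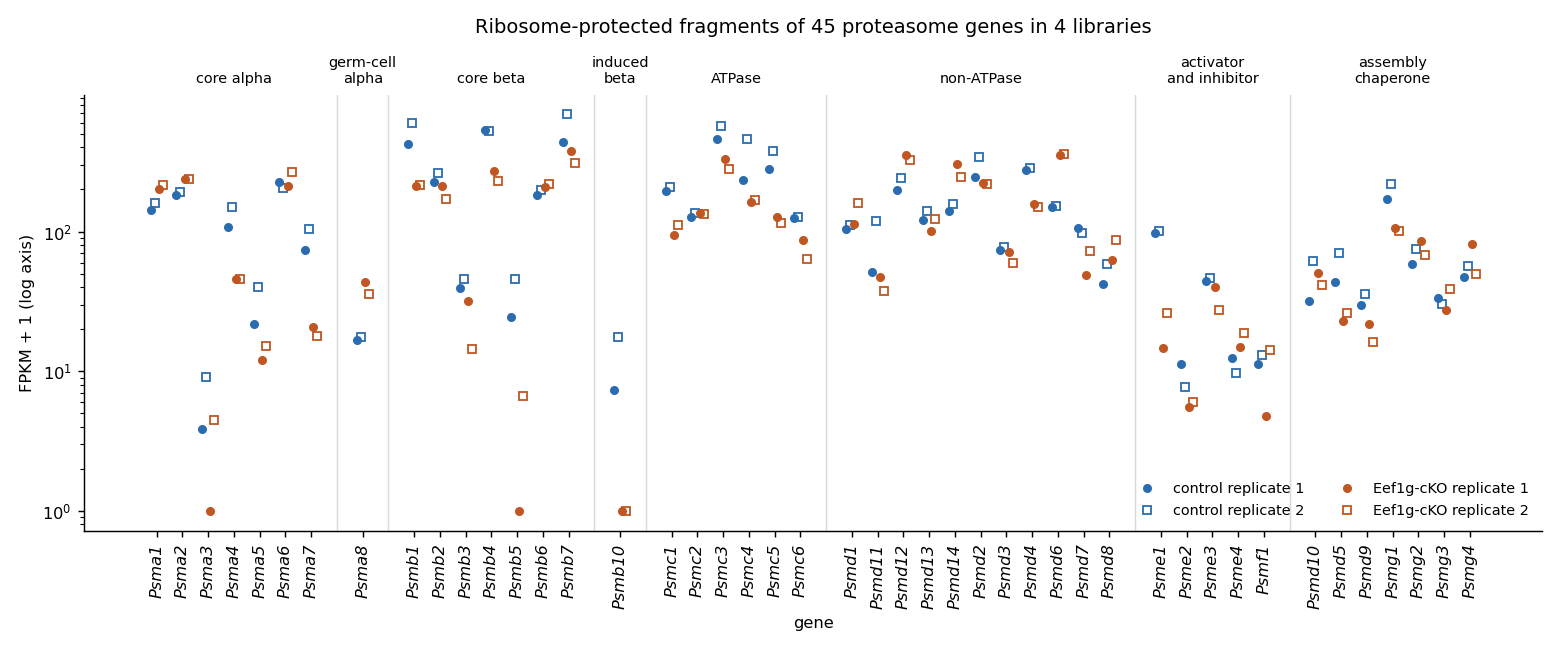
FPKM + 1 (log axis) of the 45 proteasome genes in each of the 4 libraries, grouped by role, with blue for control, orange for *Eef1g*-cKO, filled points for replicate 1 and open squares for replicate 2. The non-ATPase genes keep within 49.2 to 291 FPKM in control means, and *Psmb10*, *Psma3* and *Psmb5* reach 0 FPKM in an *Eef1g*-cKO library.

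The medians differed between roles. Core beta and ATPase genes were mostly lower, with median log2 fold changes of -0.99 (6 of 7 genes negative) and -0.87 (5 of 6 negative). Non-ATPase genes had a median of -0.21, with 5 positive and 6 negative, and assembly chaperones a median of 0.04, with 4 positive and 3 negative. Core alpha genes had a median of -1.14, with 3 positive and 4 negative, which placed the median on the thinly covered *Psma5*. It was -0.43 in edgeR, which could not test *Psma3*. Relative to the all-gene median, 1 of 7 core beta genes, 1 of 6 ATPase genes and 7 of 11 non-ATPase genes were higher. Differences between roles were not tested.

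Summed reads were lower in both *Eef1g*-cKO libraries for 4 of the 6 roles with more than 1 gene. Core beta genes took 1790 and 2278 reads per 1000000 in control against 1251 and 1123 in *Eef1g*-cKO, a ratio of 0.583. ATPase genes took 2145 and 2817 in control against 1447 and 1338 in *Eef1g*-cKO, a ratio of 0.561. Activators and inhibitors took 327 and 321 in control against 223 and 260 in *Eef1g*-cKO, a ratio of 0.744. Assembly chaperones took 486 and 666 in control against 429 and 377 in *Eef1g*-cKO, although the median log2 fold change of their genes was 0.04. In each of these roles the libraries of the 2 genotypes did not overlap. Of all single genes tested, 37.7% were also lower in both *Eef1g*-cKO libraries than in both control libraries. No such share was computed for sums of genes. Non-ATPase genes took 2857 and 3455 in control against 3345 and 3405 in *Eef1g*-cKO, a ratio of 1.07 with overlapping libraries. Core alpha genes took 835 and 972 in control against 777 and 855 in *Eef1g*-cKO, a ratio of 0.904, also overlapping.

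**Figure D2:**
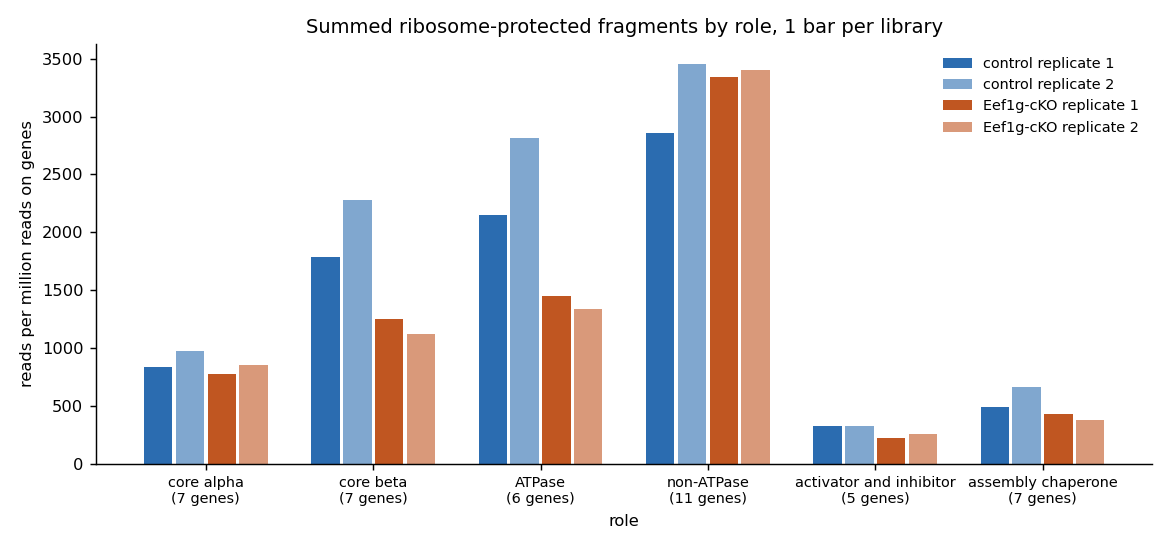
Reads per 1000000 reads on genes, summed over the genes of each role, with 1 bar for each of the 4 libraries. Core beta and ATPase bars are lower in both *Eef1g*-cKO libraries (1123 to 1447) than in both control libraries (1790 to 2817), and non-ATPase bars overlap.

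Because a footprint can be assigned to a gene with certainty only if its sequence is found nowhere else, the coding sequence of each gene was cut into all overlapping stretches of 28 bases, and these were searched in the mouse genome GRCm38. The stretches shown here carry the contrast: each is the first of its gene that lies within 1 exon and has 1 place in the genome (*Psma7*, *Psmd6*, *Psmb4*) or more than 1 (*Psme2*, *Psma3*, *Psmb5*). Capitals mark the start codon where the stretch holds it.
Psma7: ATGagctacgaccgcgccatcaccgtct
Psmd6: ATGccgctagaaaacctagaagaagagg
Psmb4: ATGgaagcgttttgggagtcacgggctg
Psme2: ATGgccaagccttgtggggtccgcttga
Psma3: gttctctcctgatggaagagttttccaa
Psmb5: ctggctagcgtgttgcagcggccgatgc
The stretches of *Psma7* (chr2:180042346-180042373, minus strand), *Psmd6* (chr14:14120856-14120883, minus strand) and *Psmb4* (chr3:94886881-94886908, minus strand) each have 1 place in the genome, inside the coding exon of their own gene. Those of *Psme2* (chr14:55590862-55590889, minus strand) and *Psmb5* (chr14:54617958-54617985, minus strand) have 2 places each, and that of *Psma3* (chr12:70978753-70978780, plus strand) has 3.

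Over the whole coding sequence, 20 proteasome genes shared no 28-base stretch with another place, among them *Psma7*, *Psma8*, *Psmb4*, *Psmb10*, *Psmc5* and *Psmd6*. In 15 genes at least 10% of the stretches occurred elsewhere, and in 5 genes at least 80%: *Psma3* (92.4%), *Psma5* (90.4%), *Psmb3* (85.9%), *Psme2* (80.6%) and *Psmb5* (80.4%). The other places were mostly annotated pseudogenes, that is, old copies of the mRNA in the genome. *Psma3* had 3 such places, the closest on chromosome 6 with 86.0% of its stretches, and *Psmb5* had 2, the closest on chromosome 7 with 72.7%. *Psme2* shared 80.3% of its stretches with *Psme2b*, an annotated protein-coding copy on chromosome 11.

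The 14 constitutive core subunits stand in the barrel in equal numbers, yet their control FPKM ranged from 5.49 for *Psma3* to 562 for *Psmb7*. The 4 subunits with at least 80% shared sequence had control means of 5.49 to 41.5 FPKM, and the other 10 had 88.0 to 562, with no overlap. Across these 14 genes the control level and the shared share had a Spearman rho of -0.64, a description of genes that share the same libraries. Over all 45 genes rho was 0.05. The 17 regulatory particle subunits, of which none reached 80%, spanned 49.2 FPKM for *Psmd8* to 516 for *Psmc3* in control. How the authors' counting treated reads with several places is not given in the sources used here, so the levels of the 5 genes with at least 80% shared sequence are uncertain.

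**Figure D3:**
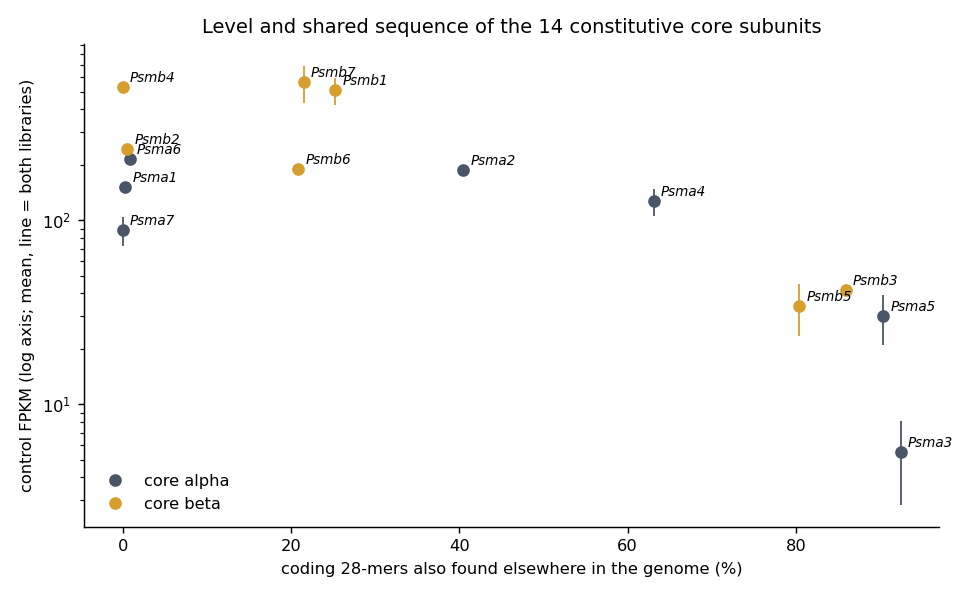
Control FPKM (log axis) of the 14 constitutive core subunits against the percentage of their coding 28-base stretches also found elsewhere in GRCm38. Points are means of the 2 control libraries and vertical lines join those 2 libraries; the 4 genes above 80% lie between 5.49 and 41.5 FPKM and the other 10 between 88.0 and 562.

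Among the alpha subunits, the germ-cell form and its ubiquitous counterpart moved in opposite directions. *Psma7* had 286 and 228 reads in control against 7 and 11 in *Eef1g*-cKO, or 72.5 and 104 FPKM against 19.6 and 16.9. *Psma8* had 66 and 39 reads in control against 16 and 24 in *Eef1g*-cKO, or 15.7 and 16.6 FPKM against 42.2 and 34.7. The libraries of the 2 genotypes did not overlap for either gene. *Psma7* fell by 2.19 on the log2 scale (standard error 0.27, limma adjusted p = 0.0264) and *Psma8* rose by 1.19 (standard error 0.26, limma adjusted p = 0.0497). The *Psma8* call sat at the threshold: edgeR kept it (log2 fold change 1.30, adjusted p = 0.0224) and DESeq2 did not (1.30, adjusted p = 0.0990).

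Both coding sequences are free of shared stretches. The FPKM ratio of *Psma8* to *Psma7* within a library was 0.217 and 0.161 in control against 2.15 and 2.05 in *Eef1g*-cKO, so *Psma7* had the higher FPKM in each control library and *Psma8* in each *Eef1g*-cKO library. On the log2(FPKM + 1) scale the difference of the 2 genes changed by 3.38 between the group means, from -2.35 ± 0.30 to 1.03 ± 0.05 (SD, n = 2 libraries each; exact two-sided permutation p = 0.333, the smallest that 2 against 2 libraries allow). The summed spermatogonial markers (2480 and 3041 to 424 and 431 reads per 1000000) and pachytene markers (892 and 649 to 1961 and 1993) moved with this ratio, and their part in it was not tested. Without *Eef1g*-cKO replicate 1, which leaves 1 library in that group and takes the spread from the control pair alone, *Psma8* had a log2 fold change of 1.06 and was not called (limma adjusted p = 0.0894).

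**Figure D4:**
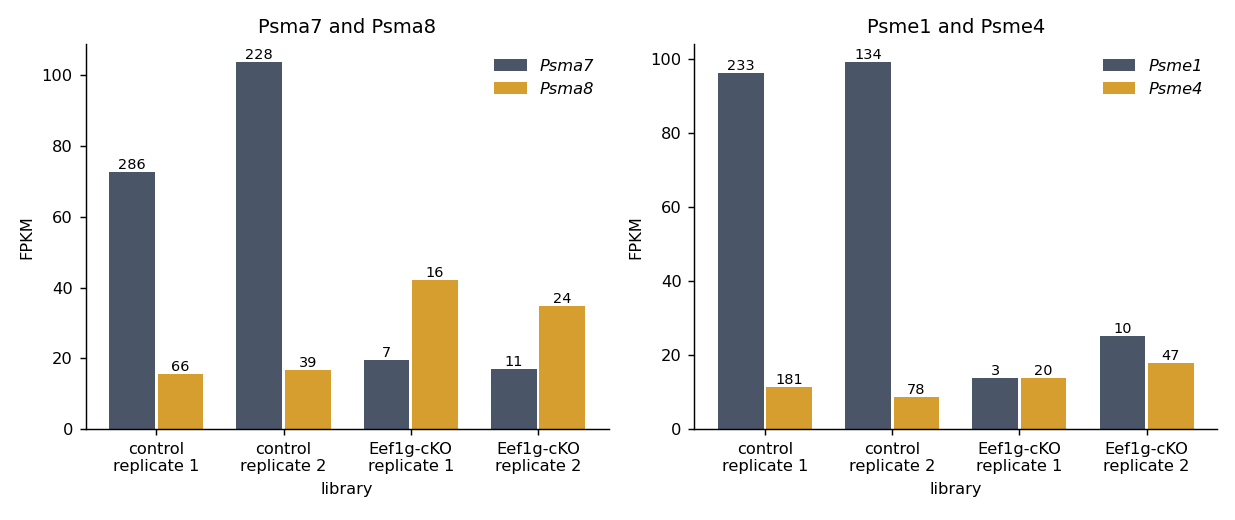
FPKM of the alternative alpha subunits *Psma7* and *Psma8* (left) and of the activators *Psme1* and *Psme4* (right) in each of the 4 libraries, with the number of reads above each bar. *Psma7* falls from 72.5 and 104 FPKM to 19.6 and 16.9, and *Psma8* goes from 15.7 and 16.6 to 42.2 and 34.7.

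Of the other alpha subunits, *Psma4*, the α3 subunit, decreased from 106 and 148 FPKM to 44.8 and 44.7 (log2 fold change -1.47, standard error 0.24, limma adjusted p = 0.0350), although 63.1% of its coding stretches occur elsewhere. *Psma6*, α1, had the highest mean level of the group and no detectable change, with 225 and 204 FPKM in control against 211 and 266 in *Eef1g*-cKO (0.14, limma adjusted p = 0.679). *Psma1* and *Psma2* were above control in both *Eef1g*-cKO libraries, with log2 fold changes of 0.46 and 0.33 that did not pass (limma adjusted p = 0.180 and 0.278). *Psma5* had 63 and 66 reads in control against 3 and 7 in *Eef1g*-cKO, and passed by unadjusted p alone. *Psma3* had only 10 and 16 reads in control against 0 and 2 in *Eef1g*-cKO, a ratio of reads per 1000000 of 0.470 with a 95% exact Clopper-Pearson interval from 0.0541 to 1.88, so no difference could be detected at this depth. Such intervals cover counting error only.

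Of the beta subunits, *Psmb1*, the non-catalytic β6 with 25.3% shared stretches, decreased from 423 and 595 FPKM to 211 and 215 (log2 fold change -1.23, standard error 0.24, limma adjusted p = 0.0420). *Psmb4*, β7, decreased from 529 and 525 FPKM to 268 and 227 (-1.09, standard error 0.20, limma adjusted p = 0.0394). Both calls were lost in limma with libraries centred on their medians (-1.02 and -0.88, adjusted p = 0.0543 and 0.0534). With a single *Eef1g*-cKO library, where the control pair alone gives the spread, the fold changes were about as large and neither gene was called, both without *Eef1g*-cKO replicate 1 (-1.22 and -1.21, limma adjusted p = 0.0828 and 0.0749) and without *Eef1g*-cKO replicate 2 (-1.24 and -0.97, limma adjusted p = 0.0644 and 0.125). The 3 catalytic subunits gave unlike values. *Psmb7*, β2, had the highest FPKM of all core subunits, 436 and 689 in control against 373 and 309 in *Eef1g*-cKO (-0.69, limma adjusted p = 0.171). Scaled to coding length, *Psmb1* had the highest control mean of the core subunits. *Psmb6*, β1, was slightly above control in both *Eef1g*-cKO libraries (0.16, limma adjusted p = 0.588). The non-catalytic *Psmb2* (β4) and *Psmb3* (β3) had log2 fold changes of -0.35 and -0.99, neither called by limma or edgeR. *Psmb5*, β5, had 51 and 54 reads in control against 0 and 2 in *Eef1g*-cKO, a ratio of reads per 1000000 of 0.116 with a 95% exact Clopper-Pearson interval from 0.0139 to 0.431. Its log2 fold change of -3.70 missed limma's adjustment (adjusted p = 0.0617), and that of -3.10 in edgeR passed (adjusted p = 0.0152), in a gene with 80.4% shared stretches.

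*Psmb10* encodes β2i, the beta subunit that replaces *Psmb7* in the immunoproteasome of interferon-exposed and immune cells. It had 20 and 29 reads in control, or 6.35 and 16.5 FPKM, and 0 reads in both *Eef1g*-cKO libraries (limma adjusted p = 0.0353). DESeq2 did not call this decrease. Against 3 reads in each *Eef1g*-cKO library, the number that a count of 0 allows at 95% confidence, the control mean was 1.40-fold higher. This bound takes the control mean as exact. Those 3 reads stand for a mean of 8.17 FPKM, above the 6.35 FPKM of control replicate 1, so the bound rests on control replicate 2.

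Among the ATPases, *Psmc5* (Rpt6) decreased from 278 and 376 FPKM to 126 and 113 (log2 fold change -1.43, standard error 0.23, limma adjusted p = 0.0337). It was the only ATPase past the fold threshold. *Psmc1* (Rpt2) had an adjusted p of 0.0472 in limma at a log2 fold change of -0.98. *Psmc3* (Rpt5), the highest of the group, had 460 and 571 FPKM in control against 331 and 279 in *Eef1g*-cKO (-0.75, limma adjusted p = 0.0904). *Psmc6* (Rpt4), the lowest, had 124 and 126 FPKM in control against 85.7 and 62.7 in *Eef1g*-cKO (-0.76, limma adjusted p = 0.0939). *Psmc4* (Rpt3) had 231 and 457 FPKM in control against 162 and 167 in *Eef1g*-cKO (-0.98, limma adjusted p = 0.122), so its control libraries lay farther apart than the means of the genotypes did. *Psmc2* (Rpt1) overlapped between genotypes and had a log2 fold change of 0.03.

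The non-ATPase subunits held the largest increase among the 45 genes in limma. *Psmd6* (Rpn7), a subunit of the lid, went from 149 and 150.5 FPKM in control to 355 and 356 in *Eef1g*-cKO, an increase of 1.24 on the log2 scale (standard error 0.19, limma adjusted p = 0.0307). The replicates lay within 2 FPKM of each other in each genotype, on 478 and 270 reads in control against 103 and 188 in *Eef1g*-cKO. Counting error on 103 reads is wider than 2 FPKM here, so this closeness does not measure precision. *Psmd14* (Rpn11), the deubiquitinase that cuts ubiquitin chains off the substrate, had 139 and 156 FPKM in control against 301 and 243 in *Eef1g*-cKO (0.87, limma adjusted p = 0.0607). *Psmd12* (Rpn5), another lid subunit and the highest of the role by its mean over the 4 libraries, had 198 and 241 FPKM in control against 353 and 326 in *Eef1g*-cKO (0.63, limma adjusted p = 0.108). *Psmd8* (Rpn12), also of the lid and the lowest of the role by mean FPKM, had 41.1 and 57.3 FPKM in control against 62.0 and 85.9 in *Eef1g*-cKO (0.58, limma adjusted p = 0.223). For these 3 genes the *Eef1g*-cKO libraries were the higher ones without passing the adjustment in limma, and edgeR gave adjusted p of 0.00403, 0.0204 and 0.0900 at log2 fold changes under 1.

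In the other direction, *Psmd4* (Rpn10), a ubiquitin receptor, had 275 and 283 FPKM in control against 156 and 150 in *Eef1g*-cKO, with an adjusted p of 0.0498 in limma and a log2 value of -0.86, short of the fold threshold. The remaining non-ATPase subunits, *Psmd1*, *Psmd2*, *Psmd3*, *Psmd7*, *Psmd11* and *Psmd13*, had log2 fold changes from -0.90 to 0.32 and were not called by limma or edgeR. Of these, *Psmd1* (Rpn2) and *Psmd2* (Rpn1) form the scaffold of the base, with 0.32 and -0.38. In total, 5 of the 11 non-ATPase genes were above both control libraries in each *Eef1g*-cKO library, and 5 were below, against 24.6% and 37.7% of all genes tested. *Psmd6* and *Psmc5* encode subunits of the same particle, and the ratio of their FPKM was 0.535 and 0.400 in control against 2.82 and 3.14 in *Eef1g*-cKO, given as a description because the pair was chosen by its values.

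**Figure D5:**
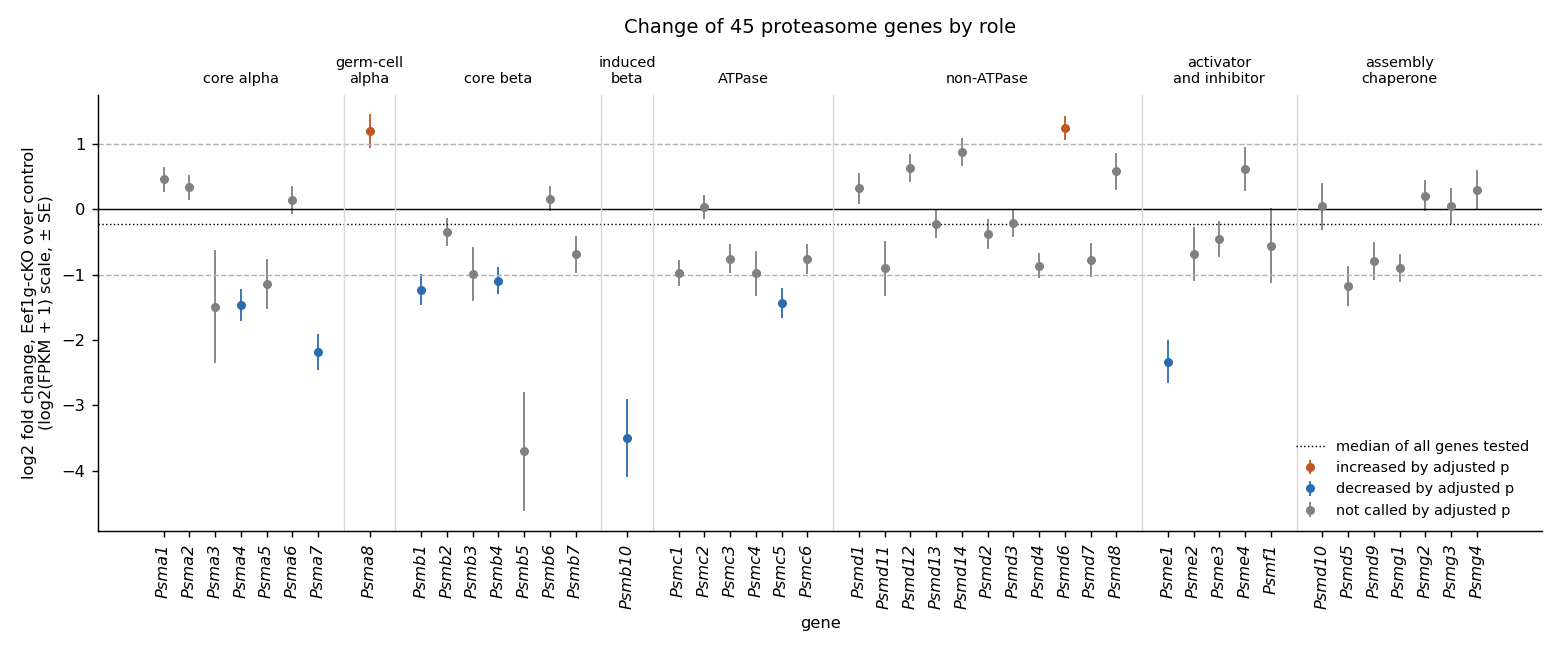
Log2 fold change of *Eef1g*-cKO over control with its standard error from limma for the 45 proteasome genes by role. The dotted line is the median of all genes tested (-0.23) and dashed lines mark the fold threshold of 1; *Psma8* and *Psmd6* stand above it, and the 7 decreased genes below -1 lie in the core, the ATPases and the activators.

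The activators open the gate without ATP. *Psme1*, the PA28α subunit of the interferon-induced activator ring, of whose coding stretches 36.0% occur elsewhere, decreased from 96.2 and 99.1 FPKM to 13.7 and 25.1, on 3 and 10 reads in *Eef1g*-cKO (log2 fold change -2.33, standard error 0.32, limma adjusted p = 0.0296). Its partner *Psme2*, PA28β, had 25 and 9 reads in control against 1 and 2 in *Eef1g*-cKO, a ratio of 0.540 with a 95% exact Clopper-Pearson interval from 0.106 to 1.72, so no difference could be detected. *Psme3*, the nuclear PA28γ, had 43.6 and 45.5 FPKM in control against 39.2 and 26.2 in *Eef1g*-cKO (-0.46, limma adjusted p = 0.304). *Psme4*, PA200, had 11.3 and 8.75 FPKM in control against 13.9 and 17.9 in *Eef1g*-cKO (0.61, limma adjusted p = 0.269). *Psmf1*, which encodes the inhibitor PI31, had 90 and 59 reads in control against 3 and 19 in *Eef1g*-cKO and overlapped between genotypes (-0.56, limma adjusted p = 0.540). The ratio of *Psme4* to *Psme1* was 0.118 and 0.0883 in control against 1.01 and 0.713 in *Eef1g*-cKO, again a description of a pair chosen by its values.

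None of the 7 assembly chaperones was called by limma's adjusted p; *Psmd5* was called by its unadjusted p and by edgeR. *Psmd5*, which holds ATPases before the base is complete, had 42.3 and 69.7 FPKM in control against 21.9 and 25.2 in *Eef1g*-cKO (-1.18, limma adjusted p = 0.0702). *Psmg1* (PAC1), an alpha-ring chaperone and the highest of the role, had 170 and 216 FPKM in control against 104 and 99.5 in *Eef1g*-cKO (-0.90, limma adjusted p = 0.0579). *Psmd9*, the lowest by FPKM, had 28.6 and 34.6 FPKM in control against 20.7 and 15.1 in *Eef1g*-cKO (-0.80, limma adjusted p = 0.132). Scaled to coding instead of gene length, *Psmd9* had 111 and 134.5 in control against 80.5 and 58.9 in *Eef1g*-cKO. On that scale it was above *Psmd5*, with 57.1 and 94.1 in control against 29.5 and 34.0 in *Eef1g*-cKO. *Psmd10*, *Psmg2*, *Psmg3* and *Psmg4* overlapped between genotypes, with log2 fold changes from 0.04 to 0.30.

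Genes that work with the proteasome but carry other symbols were followed as 26 genes in the table. Of these, 1 increased and 1 decreased by limma's adjusted p, against 2.87% and 4.97% of all genes tested. *Ubqln1*, a shuttle that carries ubiquitinated proteins to the proteasome, had 23.1 and 23.9 FPKM in control against 52.1 and 65.2 in *Eef1g*-cKO (log2 fold change 1.27, limma adjusted p = 0.0401). *Nfe2l2* encodes NRF2, a transcription factor known to drive proteasome genes under oxidative stress. It had 32.3 and 30.4 FPKM in control against 3.62 and 8.93 in *Eef1g*-cKO, on only 2 and 9 reads there (-2.26, limma adjusted p = 0.0420). Its relative *Nfe2l1*, which drives proteasome genes when the proteasome is inhibited, overlapped between genotypes (0.17, limma adjusted p = 0.694). *Ngly1*, whose enzyme activates NFE2L1, had 6.81 and 5.98 FPKM in control against 23.1 and 16.1 in *Eef1g*-cKO. It passed by unadjusted p in limma (1.46, adjusted p = 0.0602) and by adjusted p in edgeR (1.63, adjusted p = 0.0128). Of the 4 ubiquitin genes and 2 further subunit genes, 0 were called by limma's adjusted p or its unadjusted p, nor by edgeR, which could test 3 of the 4 and 1 of the 2.

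The chaperonin, another large complex of stacked rings with 8 subunit genes, was taken for comparison. Its genes had a median log2 fold change of -0.14, a range from -0.42 to 0.65, and 0 calls by limma's adjusted p, its unadjusted p or edgeR. Its summed reads were 5649 and 6869 per 1000000 in control against 6070 and 6111 in *Eef1g*-cKO. The 45 proteasome genes ranged from -3.70, in *Psmb5* with 0 and 2 reads in *Eef1g*-cKO, to 1.24. Each chaperonin gene had at least 117 reads in each *Eef1g*-cKO library, where the median proteasome gene had 23 and 47. The lists thus differ in depth and in number of genes. The difference between the complexes was not tested.

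NFE2L1 and NFE2L2 bind the antioxidant response element, whose core is TGACNNNGC. The core was searched on both strands, overlapping matches included, from 250 bases before to 50 bases after the start site, in promoters from RefSeq (GRCm38.p6). A match was found in 6 of the 37 proteasome genes with a promoter sequence (16.2%) and in 1477 of 8731 genes of the table (16.9%). The matches upstream of the start site of the promoter are shown with the motif in capitals, because they lie in genes of different roles and different changes. For *Psmb6* that start site and the match lie inside the annotated gene, which begins at chr11:70525324.
Psmb5: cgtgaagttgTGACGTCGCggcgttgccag
Psmb6: ctaaagagagTGACGGAGC
Psmc6: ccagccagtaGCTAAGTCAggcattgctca
Psmd9: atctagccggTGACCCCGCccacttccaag
Psmd12: tctGCTGTGTCAcatttgccccc
The stretch of *Psmb5* is chr14:54618023-54618052 on the minus strand. The stretches of *Psmb6* (chr11:70525338-70525356), *Psmc6* (chr14:45329587-45329616), *Psmd9* (chr5:123228149-123228178) and *Psmd12* (chr11:107479278-107479300) are on the plus strand, and in *Psmc6* and *Psmd12* the motif reads on the opposite strand. The sixth gene with a match was *Psme4*, downstream of its start. The log2 fold changes of these genes ran from -3.70 for *Psmb5* to 0.63 for *Psmd12*, and none of the 6 was called by limma's adjusted p; *Psmb5* was called by its unadjusted p and by edgeR. A match is a description of letters and not evidence of binding.

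Base composition moved with the change. Over all 10127 genes with a coding sequence, coding GC content and log2 fold change had a Spearman rho of -0.29, and over the 45 proteasome genes rho was -0.30, both descriptions across genes of the same libraries. The increased *Psma8* and *Psmd6* had 45.7% and 46.7% GC, the 7 decreased genes a median of 51.2% with a range from 44.7% to 59.8%, and all genes a median of 52.9%. With the GC trend of each library removed, a correction chosen after seeing the data, the proteasome median moved from -0.68 to -0.37 and that of all genes to -0.01. *Psma8*, *Psmd6*, *Psma4*, *Psma7*, *Psmb1*, *Psmb10*, *Psmc5* and *Psme1* were still called by limma's adjusted p, *Psmb4* was not, and *Psmc6* was added.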

How the data were processed

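Ribo-seq libraries of 2 control and 2 *Eef1g*-cKO samples were grouped by their titles. The methods give adapter trimming, quality filtering and genome alignment; the submitters' processing notes name cutadapt, Bowtie, STAR, mm10 and hg38 with no role, and the counter and annotation are not given in the sources used here. The authors deposited FPKM per gene. They also deposited normalized counts, a signal in which each count was divided by a size factor, and 100% of its values were whole multiples of 1 step (tolerance 0.01 reads), which gave back the reads. Columns with the authors' own log2 fold change, its error and test score, and p-values were not used.

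The main test was limma 3.58.1 (R 4.3.3; trended prior variance, Benjamini-Hochberg) on log2(FPKM + 1) in the 10475 genes averaging 1 FPKM or more. FPKM are not counts, so the quasi-likelihood test of edgeR 4.0.16 (TMM, filtered with filterByExpr) and DESeq2 1.42.0 were run on the recovered reads as alternatives, besides other pseudocounts, filters, scalings, thinning to the shallowest library, a replicate block and each library left out. The models were tested on simulated data.

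The members, gene lists and tests were chosen with earlier results of these data known. Genes named were *Psma7* and *Psma8*, called genes, the highest and lowest of each role, the 3 largest changes each way, and induced and activator genes; others were named after their values were seen. Coding sequences were the longest per gene in GENCODE M21 (11210 genes), promoters came from RefSeq GRCm38.p6, and seed 1 fixed the thinning. The authors' annotation may differ from these. Replicates were treated as independent samples of mice, which their titles do not state, and p-values over 2 against 2 libraries measure only their spread.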

Additional observations from a re-analysis of the deposited data

How the results depend on the processing

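The fall of *Psma7* and the rise of *Psma8* kept their direction under all alternatives run. The count of genes called by adjusted p did not hold. It was 0 increased and 0 decreased in limma with a pseudocount of 0.1 FPKM (2 and 10 by unadjusted p), with a prior variance without a trend (2 and 10) and with libraries thinned to the shallowest (1 and 8). It ran from 0 to 2 increased and from 0 to 8 decreased when 1 library was left out, which leaves 1 library in that group, assumed to vary like the pair of the other group. Without control replicate 1 or without control replicate 2 it was 0 and 0 in limma (2 and 14, and 2 and 6, by unadjusted p), where no gene of the whole table passed either. The unadjusted counts ran from 2 to 3 increased and from 6 to 14 decreased over the libraries left out. DESeq2, and limma with no filter on low genes, called 1 increased gene, *Psmd6*. With libraries centred on their medians, 3 increased and 5 decreased. Over all genes limma called 301 increased and 521 decreased by adjusted p, against 705 and 904 in edgeR and 502 and 451 in DESeq2. The DESeq2 counts equal those that the study reports for its Ribo-seq comparison, and DESeq2 called neither *Psma8* nor *Psmb10*. In limma the counts were 521 and 383 with libraries centred, 553 and 380 with the GC trend removed and 205 and 373 with no filter. Deviations of same-numbered libraries had an r of -0.0080 between them. This r cannot exclude a pairing, because counting error is large at a median of 5 and 8 reads per gene in *Eef1g*-cKO. With the replicate block 2 increased and 9 decreased, adding *Psmb5* and *Psmd5*.

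The log2 fold change of *Psma8* was 1.19 with an adjusted p of 0.0562 with no filter and 0.0971 with a prior variance without a trend in limma, 1.24 (0.0630) with a pseudocount of 0.1 FPKM, 1.00 (0.256) after thinning and 1.30 (0.0990) in DESeq2. It ran from 1.06 to 1.33 with 1 library left out, with limma adjusted p from 0.0319 (without *Eef1g*-cKO replicate 2) through 0.0894 (the other *Eef1g*-cKO library left out) to 0.274 without control replicate 2. The difference of *Psma8* and *Psma7* on the log2(FPKM + 1) scale changed between groups by 3.38, and by 3.01 with a pseudocount of 5 FPKM, 3.15 after thinning and 3.17 to 3.60 with 1 library left out.

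The medians moved more. That of all 45 genes was -0.37 in edgeR and with the GC trend removed, -0.47 with libraries centred, -0.45 with a pseudocount of 5 FPKM, and -0.66 to -0.43 with 1 library left out. Core alpha gave -0.43 in edgeR, -0.50 with a minimum mean of 5 FPKM, -0.64 with a pseudocount of 5 FPKM, -0.33 after thinning, and -1.58 to -0.41. Core beta gave -0.65 with the GC trend removed, -0.78 with libraries centred, -0.86 with a pseudocount of 5 FPKM, -0.63 after thinning, and -1.21 to -0.55. ATPase genes gave -0.65 with libraries centred, and non-ATPase genes 0.17 with the GC trend removed. Activators gave -0.29 in edgeR and -0.34 with libraries centred, and chaperones -0.42 to -0.017 with 1 library left out. The summed reads differed by -0.34 on the log2 scale, by -0.12 with libraries centred and by -0.50 to -0.18 with 1 library left out. Depth limits genes such as *Psma3*, *Psmb5*, *Psmb10* and *Psme2*, which had 3 reads or fewer in both *Eef1g*-cKO libraries. The cause of these movements was not tested, beyond the smaller number of genes or libraries that a setting itself leaves.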
